A study of Mus musculus with 12 samples.

Results

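The bile acid synthesis and transport genes described here, 10 of the 50559 genes in the count tables, were followed across 12 mouse liver RNA-seq libraries. They were chosen by symbol: the synthesis enzymes Cyp7a1, Cyp8b1, Cyp27a1 and Cyp7b1, the conjugation enzymes Slc27a5 and Baat, the transporters Slc10a1 and Abcb11, and the nuclear receptor genes Nr1h4 and Nr0b2. All animals were C57BL/6N mice, a common inbred strain, in 4 groups of 3 biological replicates kept for 12 weeks on their diet. The NCD group ate normal chow, and the HFD group ate a high-fat diet with 60% of its energy from fat. The HFD+C1 and HFD+C2 groups ate the same high-fat diet and received the compound C1 or C2 into the peritoneum at 5 mg/kg/day for 12 weeks. The study's title calls the compounds CYP4A inhibitors, that is, blockers of fatty acid omega-hydroxylases. Whether the NCD and HFD mice received a vehicle injection, and the sex, age and hour of tissue collection, are not given in the sources used here. There is no group on chow with a compound, so C1 and C2 can be compared only on the high-fat diet.

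Hepatocytes make bile acids from cholesterol. In the classic route CYP7A1 carries out the first and rate-limiting step and CYP8B1 then steers the product towards cholic acid; in the alternative route CYP27A1 starts on the side chain and CYP7B1 hydroxylates the ring. SLC27A5 activates bile acids with coenzyme A and BAAT joins them to taurine or glycine. SLC10A1 (NTCP) takes bile salts up from portal blood and ABCB11 (BSEP) pumps them into bile. NR1H4 (FXR) is the receptor that senses bile acids, and NR0B2 (SHP), one of its target genes, encodes a repressor that acts on Cyp7a1 and Cyp8b1.

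The libraries held 4281210 (NCD replicate 2) to 32124248 (HFD replicate 1) reads counted in genes. Levels are given as CPM (counts per 1000000 of those reads), and group values as mean ± SD (n = 3). Reads not counted in a gene were unmapped, mapped to several places, ambiguous between genes or in no annotated feature. NCD replicate 1 and HFD+C2 replicate 1 stood apart: 58.1% and 47.1% of their reads were not counted in a gene, against 27.3% to 40.7% in the other 10 libraries. Their correlation with the other libraries of their group was 0.920 to 0.943 and 0.953 to 0.954, while the remaining pairs within groups reached 0.979 to 0.994 (log2(CPM + 1), 10133 genes). Of 10 hepatocyte markers 9 were measured, and Alb, the serum albumin gene, averaged 35600 to 77300 CPM in the groups. The summed level of the 8 cholangiocyte (bile duct) markers was 29.4 to 72.5 CPM over all 12 libraries.

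All 10 genes passed the filter of a mean of at least 10 counts in each comparison. In GENCODE M21 on GRCm38 (mm10), Cyp7a1 lies at chr4:6265612-6275633 (minus strand, 6 exons), Cyp8b1 at chr9:121914356-121916305 (minus strand, 1 exon), Cyp27a1 at chr1:74713574-74737892 (plus strand, 9 exons) and Cyp7b1 at chr3:18071950-18243338 (minus strand, 6 exons). Baat lies at chr4:49489422-49506557 (minus strand, 4 exons), Slc27a5 at chr7:12988346-12998192 (minus strand, 10 exons), Slc10a1 at chr12:80953183-80968705 (minus strand, 6 exons) and Abcb11 at chr2:69238282-69342616 (minus strand, 29 exons). Nr0b2 lies at chr4:133553376-133556536 (plus strand, 2 exons) and Nr1h4 at chr10:89454234-89533585 (minus strand, 10 exons).

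The start regions of 3 genes are shown because each holds a short promoter element within 100 bases of the RefSeq start site (GRCm38.p6), and because Cyp8b1, Nr0b2 and Abcb11 are a synthesis enzyme, a repressor and an exporter of the FXR pathway. Each sequence runs 5′ to 3′ on the gene's own strand, from 100 bases before to 50 bases after the start, at chr9:121916256-121916405, chr4:133553276-133553425 and chr2:69342567-69342716. Capitals mark TATAAA in Cyp8b1 and Nr0b2, and TGACCT in Abcb11, which is the nuclear receptor core AGGTCA read from the other strand.
Cyp8b1: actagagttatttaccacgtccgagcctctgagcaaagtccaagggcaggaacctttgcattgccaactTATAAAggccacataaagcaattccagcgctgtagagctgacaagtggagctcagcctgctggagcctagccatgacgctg
Nr0b2: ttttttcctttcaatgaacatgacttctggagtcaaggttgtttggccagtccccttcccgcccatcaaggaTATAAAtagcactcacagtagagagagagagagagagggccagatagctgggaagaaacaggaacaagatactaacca
Abcb11: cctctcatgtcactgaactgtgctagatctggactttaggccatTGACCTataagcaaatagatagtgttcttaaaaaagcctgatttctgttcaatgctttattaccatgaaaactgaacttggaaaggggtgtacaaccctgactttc

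The RefSeq table held windows of 300 bases for 6 of the 10 genes, 7 windows in all. On either strand, TATAAA was in 3 of the 7 windows (31 bases before the start in Cyp8b1, 28 in Nr0b2 and, on the other strand, 128 in one window of Slc10a1) and in 13.6% of the table's 32851 windows. AGGTCA was in 3 of the 7 (56 bases before the start in Abcb11, 214 in Nr1h4 and 87 in the second window of Slc10a1) and in 16.3% of all windows. CCAAT was in 1 of the 7, in Cyp27a1 at 71 and 34 bases before the start on the other strand, and in 37.4% of all windows. The LRH-1 element TCAAGGTCA (0.423% of all windows), the D-box TTATGTAA (0.938%), an inverted repeat of AGGTCA with 1 base between the copies (0.00913%) and a direct repeat with 1 base between (0.0396%) had no exact match in the 7 windows. The LRH-1 element and both repeats contain AGGTCA, so those searches overlap. These letter matches describe the windows and say nothing of what binds there.

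The first question was what the high-fat diet did to the 10 genes. Messenger RNA for Cyp7a1, Cyp7b1 and Slc27a5 fell on the diet, by 6.42-fold, 3.40-fold and 2.27-fold, so the first enzyme of the classic route, the ring hydroxylase of the alternative route and the coenzyme A ligase were each lower. None of the 10 genes was called higher in this fit; with no filter on low counts, Slc10a1 was (log2 change 0.79, edgeR adjusted p 0.0306). In these whole-tissue samples, fewer cells of a type and less RNA per cell cannot be told apart. Library measures and markers also differed between these groups, without overlap. Reads not counted in a gene made up 35.7% to 58.1% of NCD and 31.9% to 32.9% of HFD libraries. Reads in no annotated feature, a part of these, made up 8.58% to 23.2% and 4.92% to 6.84%. The summed CPM of the 9 hepatocyte markers measured was 42530 to 93350 in NCD and 98250 to 121300 in HFD. Its members did not all differ in 1 direction: mean Alb was 35600 CPM in NCD and 61020 CPM in HFD, and 6 of the 9 had the higher mean in HFD, while Serpina1c (7149 and 4013 CPM), Cps1 (1367 and 958 CPM) and Tat (1007 and 508 CPM) had the lower one. The 6 adipocyte markers summed to 248 to 643 CPM in NCD and 670 to 894 CPM in HFD, mostly Pck1, which hepatocytes also express. Cidec had means of 3.22 CPM in NCD and 54.85 CPM in HFD, while Adipoq, Lep, Plin1 and Retn had at most 9 reads in any library. The 8 bile duct markers summed to 29.4 to 39.8 CPM in NCD and 39.9 to 46.4 CPM in HFD. The 6 intestinal markers summed to 117 to 127 CPM and 306 to 417 CPM, mostly Fabp2 (means 95.6 and 339 CPM), with Cdx2 at 0 in all 12 libraries. The part of these library measures and markers in the diet results was not tested. The 3 calls held without NCD replicate 1, the library with the largest share of reads not counted in a gene.

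Cyp7a1 stood at 62.1, 40.2 and 32.8 CPM in the NCD livers and at 7.10, 4.23 and 6.47 CPM in the HFD livers. Every HFD library was far below the lowest NCD library. The log2 change was -2.68 ± 0.29 (SE), with a 95% interval of -3.35 to -2.02 and an adjusted p of 0.00478 (edgeR quasi-likelihood test, Benjamini-Hochberg over 13864 genes). These HFD values rest on 119 to 228 reads per library. The call held without NCD replicate 1 (log2 change -2.44, adjusted p 1.47e-05 in edgeR) and was lost without HFD replicate 3 (-2.73, adjusted p 0.0529). Over all the alternatives tried, its adjusted p ran from 3.44e-18 to 0.0529.

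Cyp7b1, which hydroxylates oxysterols, was measured at 415, 283 and 356 CPM in NCD and at 61.5, 135 and 71.8 CPM in HFD. The highest HFD library was well below the lowest NCD library. Its log2 change was -1.77 ± 0.30 (SE; edgeR adjusted p 0.0238). Without NCD replicate 1 the change was -1.70 (adjusted p 0.000708 in edgeR). The call was lost without HFD replicate 1 (-1.57, adjusted p 0.176) or HFD replicate 3 (-1.63, adjusted p 0.150), and its adjusted p ran from 3.37e-07 to 0.176 over the alternatives.

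Slc27a5, which had the highest level per length of the 10 genes in every group, read 1384, 1140 and 1038 CPM in NCD. The 3 HFD livers lay close together at 436, 451 and 461 CPM, all under the NCD range. The log2 change was -1.18 ± 0.18 (SE; edgeR adjusted p 0.0163), and -1.12 (adjusted p 0.000276) without NCD replicate 1. Leaving out any 1 of the HFD libraries kept the change between -1.19 and -1.15 but lost the call, with edgeR adjusted p values of 0.168, 0.0753 and 0.141 for replicates 1, 2 and 3. Over all alternatives the adjusted p ran from 1.56e-13 to 0.168.

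Baat, the enzyme that acts after SLC27A5, did not pass the test. It read 398, 367 and 388 CPM in NCD and 254, 283 and 290 CPM in HFD, groups that did not overlap, but its log2 change was only -0.27 (95% interval -0.64 to 0.10; edgeR adjusted p 0.306). The CPM gap was wider than the fitted one because the fit rescales the libraries (TMM, trimmed mean of M-values). Without any such rescaling, the median log2 change over all genes was -0.24, against -0.02 with TMM, and the share of called genes that were higher was 21.8%, against 42.9% with TMM and 38.4% with upper quartile scaling. The read ratio of Slc27a5 to Baat, which no library scaling touches, was 3.48, 3.10 and 2.68 in NCD and 1.72, 1.59 and 1.59 in HFD. The ratios did not overlap.

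Cyp8b1 and Cyp27a1 did not pass the test on the diet either. Cyp8b1 read 339, 459 and 435 CPM in NCD and 348, 277 and 319 CPM in HFD (log2 change -0.18 ± 0.22 SE; edgeR adjusted p 0.616), with overlapping groups. With a library left out in turn, the Cyp8b1 change ran from -0.35 to -0.06. Cyp27a1 read 208, 325 and 388 CPM in NCD and 202, 218 and 195 CPM in HFD (-0.39 ± 0.26 SE; edgeR adjusted p 0.353). The NCD value nearest the HFD libraries was that of replicate 1, the library with the largest share of reads not counted in a gene. Without it the Cyp27a1 change was -0.65 with an edgeR adjusted p of 0.0140, so that 4 of the 10 genes were called; with library weights in limma voom it was -0.60 (adjusted p 0.0105).

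The transporters differed from each other in sign. Abcb11, the bile salt export pump, read 635, 575 and 576 CPM in NCD and 351, 400 and 411 CPM in HFD. The groups did not overlap, and the log2 change of -0.41 ± 0.17 (SE) had an unadjusted p of 0.0377 and an adjusted p of 0.152 in edgeR. It passed in DESeq2 (adjusted p 0.0122) and in limma voom with library weights (0.0414). Slc10a1, the uptake carrier, read 138, 202 and 274 CPM in NCD and 263, 331 and 246 CPM in HFD, with an overlap (log2 change 0.64 ± 0.29 SE; edgeR adjusted p 0.179; 0.37 without NCD replicate 1).

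The receptor genes showed no difference that passed the test. Nr1h4 (FXR) read 55.0, 96.9 and 82.0 CPM in NCD and 65.2, 77.7 and 67.4 CPM in HFD, a log2 change of 0.05 (95% interval -0.50 to 0.60). Nr0b2 (SHP) read 47.0, 43.2 and 63.2 CPM in NCD and 51.2, 38.1 and 43.4 CPM in HFD, a log2 change of 0.00 (95% interval -0.53 to 0.52). For both genes the HFD values lay inside the NCD range or overlapped it. Their edgeR adjusted p values were 0.917 and 0.992, and the intervals leave room for changes of about the size seen for Abcb11. The sign of each changed with the settings of the fit.

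**Figure D1:**
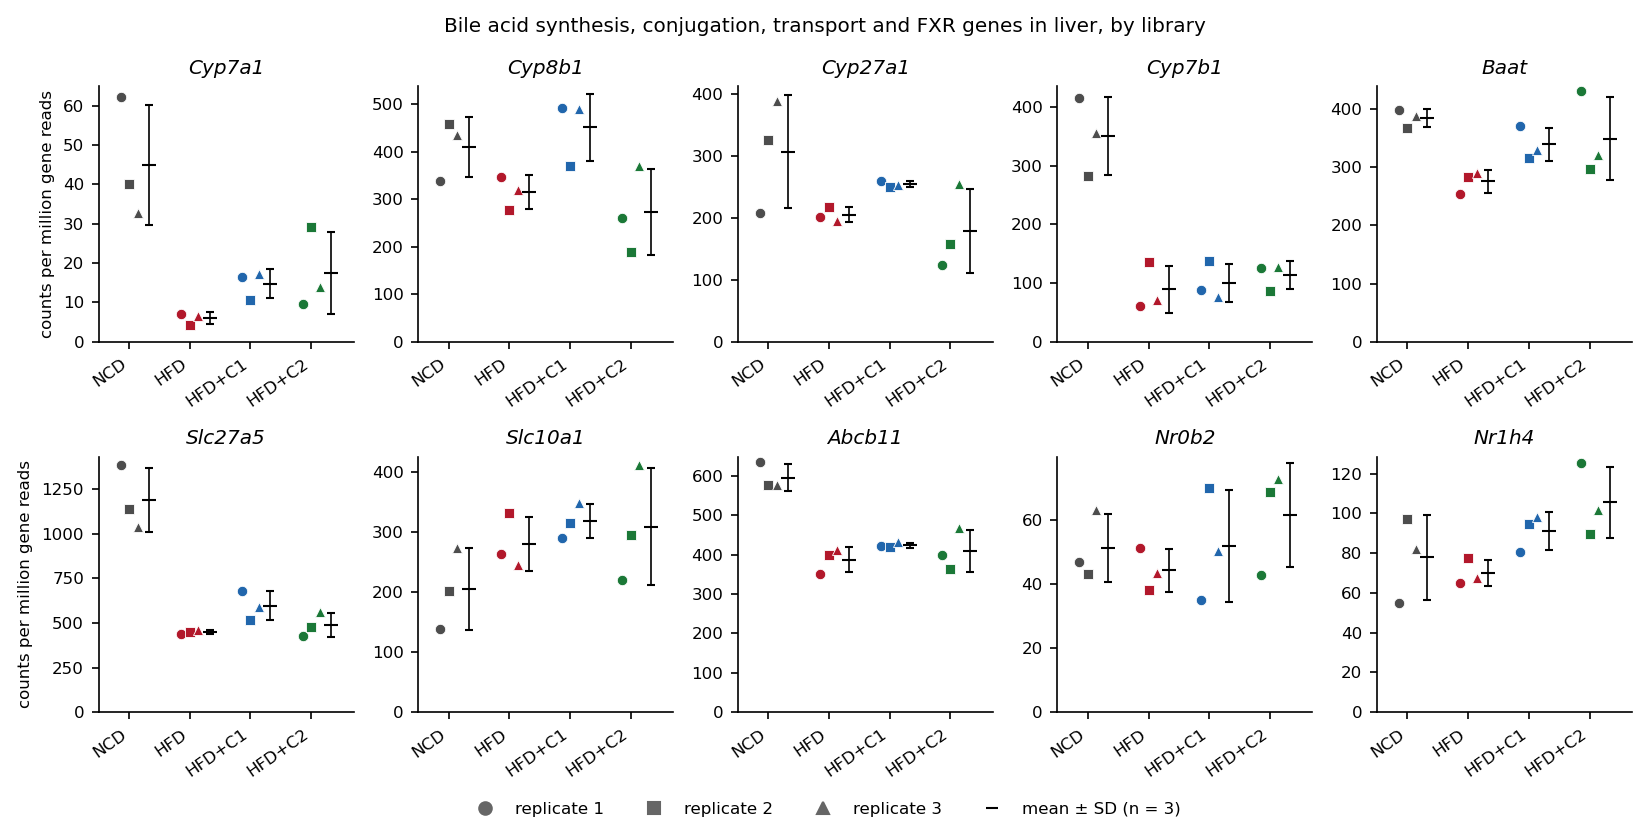
Level of each of the 10 genes in CPM (vertical axis, starting at 0) for the 3 libraries of each group (horizontal axis), with bars for the mean ± SD. Cyp7a1, Cyp7b1 and Slc27a5 lie lower in all 3 HFD libraries than in any NCD library, and Cyp7a1 lies higher in the HFD+C1 and HFD+C2 libraries than in HFD.

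In all, 3 of the 10 genes were called on the diet, all lower, against a background of 6.03% of all 13864 genes tested (2.59% higher and 3.44% lower). At an unadjusted p under 0.05, 4 of the 10 passed, against 28.9% of all genes. NCD and HFD ranges were separate for 5 of the 10, against 38.9% of all genes. All 5 were lower in HFD, with either scaling of the levels, against 27% of all genes separate and lower. The median log2 change of the 10 was -0.33, and -0.02 over all genes tested. The counts at the unadjusted threshold and of separate ranges were thus near the share found over all genes.

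The order of the genes per length also differed between the diets. In CPM per kb of exon, NCD livers ran Slc27a5 (487 ± 72.8), Cyp8b1 (211 ± 32.5), Baat (198 ± 8.11), Cyp7b1 (162 ± 30.5), Cyp27a1 (141 ± 42.1), Abcb11 (116 ± 6.63), Slc10a1 (93.3 ± 30.9), Nr0b2 (45.2 ± 9.37), Nr1h4 (33.9 ± 9.23) and Cyp7a1 (10.8 ± 3.65). Neighbours from Cyp8b1 to Slc10a1 differed by less than the sum of their SDs, as did Nr0b2 and Nr1h4. In HFD livers Slc27a5 (184 ± 5.02 CPM per kb) was near Cyp8b1 (161 ± 18.2), Cyp7b1 stood at 41.3 ± 18.4, beside Nr0b2 at 39.1 ± 5.83, and Cyp7a1 was last at 1.42 ± 0.36. Cyp7a1, the rate-limiting enzyme, had the lowest level per length of the 10 in all 4 groups, at 3.53 ± 0.88 CPM per kb in HFD+C1 and 4.19 ± 2.48 in HFD+C2.

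The other genes of the pathway came from 5 lists with 87 genes, of which 85 were in the tables and 76 were tested. On the diet 11 of the 76 were called, 5 higher and 6 lower, against 6.03% of all genes tested (2.59% higher and 3.44% lower). Among 18 further synthesis enzymes, Cyp2c70, which makes muricholic acids in mice, fell from 449 to 150 CPM (log2 change -1.38; edgeR adjusted p 0.0245). Por, the reductase that hands electrons to microsomal P450 enzymes, fell (-1.16; adjusted p 0.0254), and so did Cyp39a1, an oxysterol hydroxylase (-0.98; adjusted p 0.0442). Cyp46a1, a cholesterol hydroxylase best known from brain, rose (2.08; adjusted p 0.0366) from at most 0.734 CPM (6, 3 and 17 reads) in NCD. The genes with most reads in the list, Scp2 and Akr1c6, were not called (log2 change 0.35 and -0.24).

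In the diet comparison 2 of 17 tested transport genes were called higher and none lower, against 2.59% and 3.44% of all genes tested. Abcb4, which moves phospholipid into bile, read 61.2, 143 and 142 CPM in NCD and 376, 295 and 349 CPM in HFD (log2 change 1.75; edgeR adjusted p 0.0360). Abcg5, part of the sterol exporter, rose too (1.37; adjusted p 0.0235). Its partner Abcg8 read 7.61, 34.6 and 32.7 CPM in NCD and 67.6, 80.1 and 63.8 CPM in HFD. It was not called (log2 change 1.69, edgeR adjusted p 0.0715). The genes with most reads in the list were not called: Fabp1, an intracellular fatty acid and bile acid binder (0.80; adjusted p 0.0851), and Slco1b2, an uptake carrier (-0.80; adjusted p 0.12). Among 13 tested FXR target genes besides Nr0b2 and Abcb11, Abcb4, which stands in both lists, was the 1 gene called. C3 and Kng1, with most reads in that list, were not called (log2 change 0.39 and 0.14).

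Of 8 clearance genes tested, 3 fell: Cyp2b10 (from 20.4, 22.9 and 20.4 CPM to 0.809, 0.249 and 0.556 CPM; log2 change -5.05; edgeR adjusted p 0.00174), Cyp3a11 (-2.09; adjusted p 0.00927) and Ugt2b5 (-0.98; adjusted p 0.0343). The first is a known target of the receptor CAR, and CYP3A11 hydroxylates bile acids. Cyp3a11 and Ugt2b5 also had the most reads in the list. Over all genes tested, 3.44% were called lower on the diet. Leaving out 1 library at a time gave 1 to 29 calls among the 76 genes, with 29 without NCD replicate 1.

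Among 22 tested regulators, Ppara, the fatty acid receptor gene, rose (log2 change 1.13; edgeR adjusted p 0.0419), as did Dbp, a clock output factor known to act on Cyp7a1. Dbp had 0 to 2 reads in the NCD libraries and 1.28 to 3.33 CPM in the HFD libraries (edgeR adjusted p 0.0163). Its HFD mean of 2.38 CPM was at least 3.40-fold higher than NCD, taking the highest floor of 3 counts among the NCD libraries (0.701 CPM). Nr1d1, another clock gene, read 1.83, 5.61 and 12.4 CPM in NCD and 27.8, 24.0 and 24.2 CPM in HFD (log2 change 2.04; adjusted p 0.0605). Nfil3, which opposes DBP, read lower in HFD without overlap (-0.67; adjusted p 0.0622), and Nr1d2 had a change of 0.19 (adjusted p 0.684). The hour of collection can set clock gene levels. Dbp rose where Cyp7a1 fell, and its part in the Cyp7a1 result was not tested. The receptor genes for the intestinal hormone FGF15, Fgfr4 and Klb, were not called (adjusted p 0.321 and 0.0601), and Fgf15 itself had 0 counts in all 12 libraries. Hnf4a and Rxra, the regulators with most reads, were not called (log2 change 0.83 and 0.19). Over all genes tested, 2.59% were called higher on the diet.

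**Figure D2:**
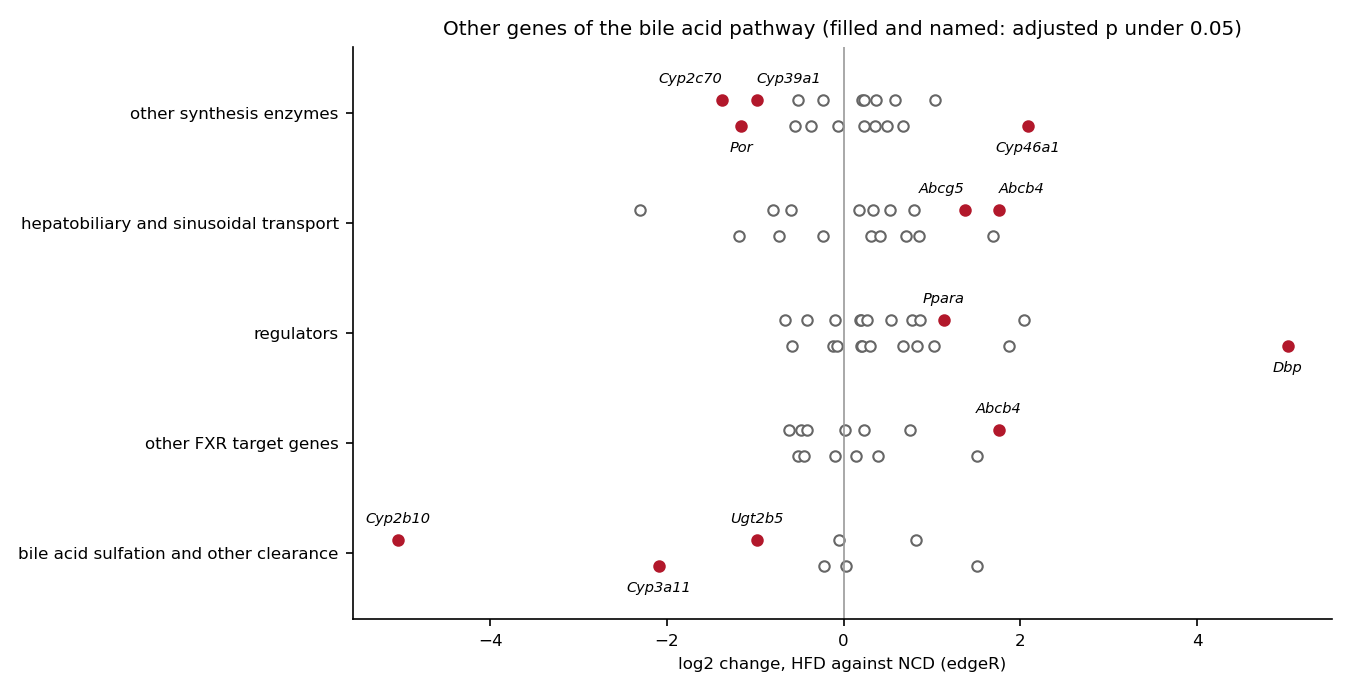
log2 change in HFD against NCD (horizontal axis, edgeR) of the tested genes in 5 lists of other bile acid genes (vertical axis; the offset within a list only separates the points). Filled points with a name had an adjusted p under 0.05: Cyp2b10, Cyp3a11, Cyp2c70, Por, Cyp39a1 and Ugt2b5 lie below 0, and Dbp, Cyp46a1, Abcb4 (in 2 lists), Abcg5 and Ppara above it.

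The second question was what C1 did on the high-fat diet. All 10 genes had a positive log2 change in HFD+C1 against HFD, from 0.11 (Abcb11) to 1.27 (Cyp7a1), but none passed the adjusted threshold in edgeR. The sign turned for Cyp7b1 without HFD+C1 replicate 2 (-0.14) or HFD replicate 1 (-0.026), and for Nr0b2 without HFD+C1 replicate 2 (-0.0995). The largest was Cyp7a1, at 2.42 times its HFD level. Over all 13358 genes tested, 51.2% had a positive change. The median log2 change was 0.28 for the 10 genes and 0.01 for all genes.

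Cyp7a1 read 16.4, 10.5 and 17.3 CPM in HFD+C1, against 7.10, 4.23 and 6.47 CPM in HFD. The lowest treated library was above the highest untreated one, and all 3 were below the lowest NCD library at 32.8 CPM. The log2 change was 1.27 ± 0.22 (SE; 95% interval 0.79 to 1.76), with an unadjusted p of 7.12e-05 and an adjusted p of 0.0925 in edgeR. DESeq2 called it (adjusted p 3.94e-05), as did limma voom with library weights (0.0319), while limma with a trend did not (0.0808). edgeR also called it without HFD replicate 2 (log2 change 1.06, adjusted p 0.0213) or without HFD+C1 replicate 2 (1.46, adjusted p 0.0311). The sign was positive under every alternative run, and the adjusted p ran from 9.64e-11 to 1.00.

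Cyp8b1 read 493, 370.4 and 491 CPM in HFD+C1 and 348, 277 and 319 CPM in HFD. The groups did not overlap, and the log2 change was 0.49 ± 0.14 (SE; edgeR unadjusted p 0.00449, adjusted p 0.365). Cyp27a1 was tight in both groups, at 254 ± 4.90 CPM in HFD+C1 (highest 260) and 202, 218 and 195 CPM in HFD (0.29 ± 0.11 SE; unadjusted p 0.0186, adjusted p 0.501). Both enzymes thus read higher in every treated library. Cyp7b1 read 88.4, 137 and 76.2 CPM in HFD+C1 and overlapped HFD (0.17 ± 0.26 SE; adjusted p 0.933).

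Slc27a5 read 680, 518 and 590 CPM in HFD+C1, above the HFD libraries at 436 to 461 CPM and below the NCD libraries at 1038 CPM and over. Its log2 change against HFD was 0.38 ± 0.12 (SE; edgeR unadjusted p 0.00775, adjusted p 0.417). Baat read 372, 316 and 330.4 CPM, above HFD without overlap (0.28 ± 0.11 SE; adjusted p 0.580). Neither conjugation enzyme passed the adjusted threshold in HFD+C1.

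The bile salt carriers differed little. Abcb11 read 421, 420.4 and 432 CPM in HFD+C1, just above the highest HFD library at 411 CPM (log2 change 0.11; 95% interval -0.13 to 0.35; edgeR adjusted p 0.879). Slc10a1 read 291, 315 and 348 CPM and overlapped HFD (0.17; 95% interval -0.11 to 0.44; adjusted p 0.847). Nr1h4 read 80.6, 94.5 and 98.3 CPM, all above the highest HFD library at 77.7 CPM (0.36 ± 0.12 SE; adjusted p 0.439). Its target Nr0b2 read 35.03, 70.1 and 50.3 CPM, a spread wider than any difference from HFD (0.20 ± 0.21 SE; adjusted p 0.889).

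None of the 10 genes was called for C1 with edgeR, where 0.0524% of all genes were. DESeq2 called 1, limma voom with library weights 1 and limma with a trend 0. At an unadjusted p under 0.05, 6 of the 10 passed (Cyp7a1, Cyp8b1, Slc27a5, Nr1h4, Cyp27a1 and Baat), against 7.75% of all genes. For 7 of the 10 the ranges were separate, all higher in HFD+C1, against 12.1% of all genes in either direction and 6.6% higher. The share of the 10 genes was above the background on both counts, but the genes were chosen with earlier results of these data known. The summed level of 8 Kupffer cell and macrophage markers also differed, at 138 to 200 CPM in HFD and 240.3 to 306 CPM in HFD+C1. The share of reads not counted in a gene was 31.9% to 32.9% in HFD and 27.3% to 28.7% in HFD+C1. The part of either in the result was not tested.

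Of the 76 other pathway genes tested, 1 was called for C1. Cyp3a11, an inducible P450 that hydroxylates bile acids, fell from 888, 729 and 983 CPM in HFD to 315, 373 and 508 CPM in HFD+C1 (log2 change -1.15 ± 0.17 SE; edgeR adjusted p 0.0377). The groups did not overlap. The call was lost without HFD replicate 1 or 3 or HFD+C1 replicate 1 or 2, with changes from -1.12 to -1.004 and adjusted p values from 0.0799 to 0.279. Of the clock genes, Dbp had a log2 change of 0.14 (adjusted p 0.969) and Nr1d1 one of 0.17 (adjusted p 0.930).

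The third question was what C2 did on the same diet. Cyp7a1 again had the largest change of the 10 genes, at 3.02 times its HFD level, and Nr1h4 was next at 1.57 times. None passed the adjusted threshold in edgeR. The SD of CPM was larger between HFD+C2 than between HFD+C1 libraries for 7 of the 10 genes, and smaller for Cyp7b1, Slc27a5 and Nr0b2. The comparisons of the diet, of C1 and of C2 share the HFD libraries.

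Cyp7a1 read 9.51, 29.2 and 13.8 CPM in HFD+C2, with replicate 2 the highest, and all above the highest HFD library at 7.10 CPM. The log2 change was 1.60 ± 0.39 (SE; 95% interval 0.72 to 2.47; unadjusted p 0.00253, adjusted p 0.695 in edgeR). Without HFD+C2 replicate 1, the library with many reads not counted in a gene, it was 1.86 and was called (edgeR adjusted p 0.0282). Without replicate 2 it was 0.99 (adjusted p 0.666). DESeq2 called it (adjusted p 0.0211), as did limma voom with library weights (0.0398). The sign was positive under every alternative, and the adjusted p ran from 1.33e-09 to 0.998.

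Nr1h4 read 125, 89.9 and 102 CPM in HFD+C2, above the HFD libraries at 65.2 to 77.7 CPM (log2 change 0.65 ± 0.19 SE; edgeR unadjusted p 0.00759, adjusted p 0.695). It was 0.44 without HFD+C2 replicate 1. Nr0b2 read 43.0, 68.8 and 72.6 CPM, with replicate 1 inside the HFD range (0.50 ± 0.21 SE; unadjusted p 0.0387, adjusted p 0.695). The FXR gene was thus higher in every C2 library than in any HFD library, and its target gene in 2 of 3.

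Cyp8b1 read 260.5, 189 and 369 CPM in HFD+C2, a range that spanned the HFD libraries (log2 change -0.18 ± 0.24 SE; edgeR adjusted p 0.841; -0.21 without HFD+C2 replicate 1). Cyp27a1 read 125, 158 and 255 CPM (-0.18 ± 0.22 SE; adjusted p 0.832) and Cyp7b1 126, 87.0 and 128 CPM (0.40 ± 0.28 SE; adjusted p 0.722). Neither differed beyond the spread between livers.

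Baat read 431, 297 and 321 CPM in HFD+C2, above the HFD libraries without overlap (log2 change 0.40 ± 0.22 SE; edgeR adjusted p 0.696), with the highest value in replicate 1. Slc27a5 read 426, 476 and 559 CPM (0.15 ± 0.17 SE; adjusted p 0.812). It overlapped HFD by reads in genes but not after TMM scaling. Slc10a1 read 220, 296 and 412 CPM (0.17 ± 0.21 SE; adjusted p 0.835) and Abcb11 399, 363 and 467 CPM (0.12 ± 0.17 SE; adjusted p 0.852), both overlapping HFD.

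None of the 10 genes was called for C2 with edgeR, against 0.0222% of all 13503 genes. DESeq2 called 1, limma voom with library weights 1 and limma with a trend 0. At an unadjusted p under 0.05, 3 of the 10 passed, against 6.89% of all genes. The ranges were separate for 3 of the 10, all higher in HFD+C2, and for 4 after TMM scaling, against 13% of all genes by CPM (4.58% higher). The median log2 change was 0.29 for the 10 genes and 0.02 for all. Without HFD+C2 replicate 1, where 2.95% of gene reads were mitochondrial against 0.571% and 0.591% in replicates 2 and 3, the log2 change was 0.15 for Baat, -0.0155 for Cyp27a1, 0.26 for Cyp7b1, 0.19 for Slc27a5, 0.32 for Slc10a1, 0.08 for Abcb11 and 0.66 for Nr0b2, none called in edgeR. The 8 lymphocyte markers, with Trac at 0 in all libraries, summed to 5.51 to 7.04 CPM in HFD and 7.84 to 11.95 CPM in HFD+C2. Ptprc, a marker of all white blood cells, had means of 2.72 and 4.75 CPM and Jchain of 1.28 and 2.23 CPM. Cd3g (0.5466 and 1.08 CPM) and Ms4a1 (0.3104 and 0.3897 CPM) also had higher means in HFD+C2. Cd3e (0.383 and 0.169 CPM), Cd79a (0.861 and 0.369 CPM) and Cd79b (0.363 and 0.324 CPM) had lower means in HFD+C2. The 8 Kupffer cell and macrophage markers summed to 138 to 200 CPM and 198 to 369 CPM. Of the clock genes, Dbp had a log2 change of 1.04 (edgeR unadjusted p 0.0593, adjusted p 0.695) and Nr1d1 one of 0.66 (unadjusted p 0.0966, adjusted p 0.696). The part of these in the C2 results was not tested. Of the 76 other pathway genes, 0 were called with edgeR and 5 passed unadjusted. DESeq2 called 1 of them and limma voom 1.

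**Figure D3:**
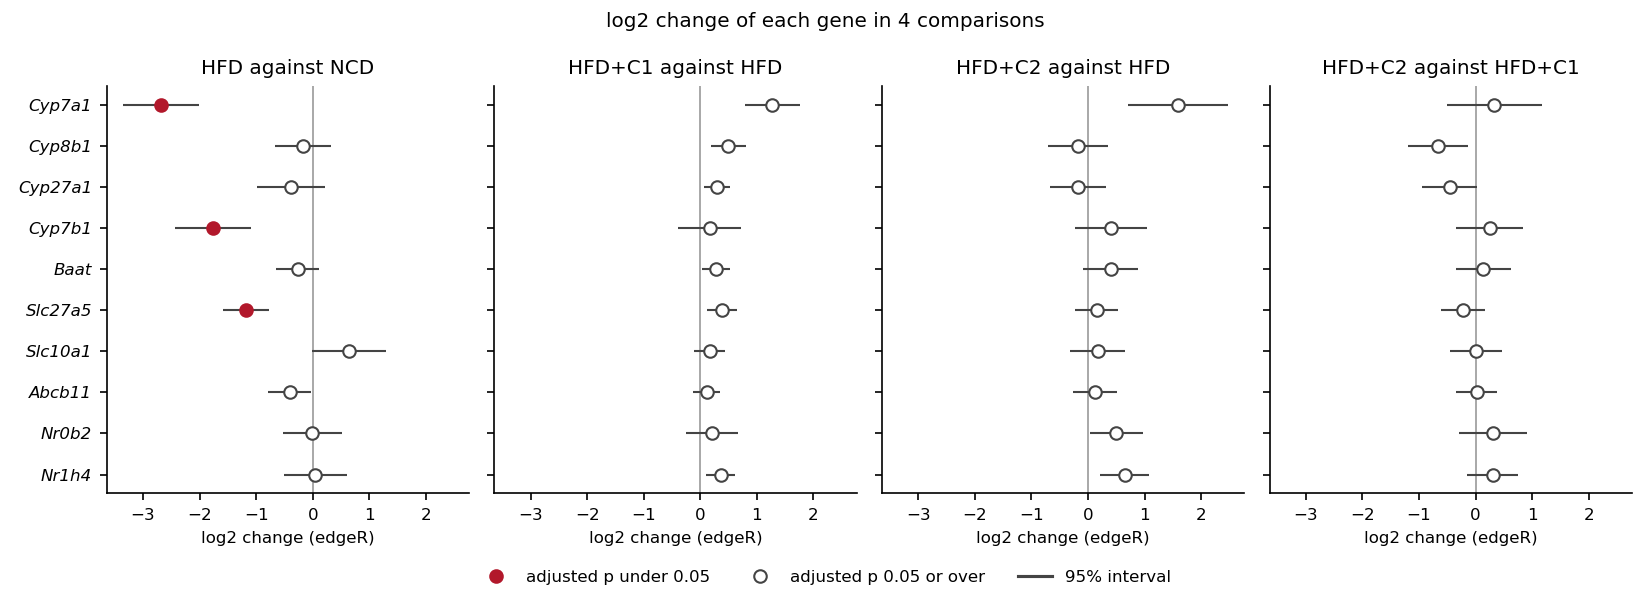
log2 change of each of the 10 genes (rows) in 4 comparisons (panels) with its 95% interval from edgeR. Filled points had an adjusted p under 0.05: Cyp7a1, Cyp7b1 and Slc27a5 on the diet. All 10 points lie right of 0 for HFD+C1 against HFD.

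The compounds were compared directly as 1 pair, at the same dose and duration. None of the 10 genes was called between HFD+C2 and HFD+C1 in edgeR, DESeq2, limma with a trend or limma voom, and 0% of all 13229 genes were called in edgeR. At an unadjusted p under 0.05, 1 of the 10 passed, against 4.6% of all genes. The ranges were separate for 1 of the 10, lower in HFD+C2, and for 2 after TMM scaling, against 11.6% of all genes by CPM (7.51% lower). That gene was Cyp8b1, the enzyme that sets the share of cholic acid, at 189 to 369 CPM with C2 and 370.4 to 493 CPM with C1.

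Its log2 change in HFD+C2 against HFD+C1 was -0.66 ± 0.23 (SE; 95% interval -1.19 to -0.13; edgeR unadjusted p 0.0203, adjusted p 0.841). It was -0.69 without HFD+C2 replicate 1. Cyp27a1 had the next largest change, -0.46 (95% interval -0.94 to 0.03; adjusted p 0.841). For Cyp7a1 the change was 0.33 with an interval of -0.51 to 1.17 (adjusted p 0.884), and it was 0.59 without HFD+C2 replicate 1 and -0.28 without HFD+C2 replicate 2, so these data do not order the compounds for this gene. The intervals of the remaining genes reached from -0.61 (Slc27a5) to 0.91 (Nr0b2), which leaves room for differences of that size between C1 and C2.

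The balance between the enzymes was read from counts within a library, where no scaling enters. Reads of Cyp8b1 for each read of Cyp7a1 numbered 5.46, 11.4 and 13.3 in the chow livers and 49.0, 65.5 and 49.4 on the high-fat diet alone. With C1 they numbered 30.1, 35.2 and 28.4, and with C2 27.4, 6.48 and 26.8. The ratio was higher in every HFD liver than in any other liver, by 5.76-fold over NCD. It was 1.74-fold lower in HFD+C1 than in HFD and 3.22-fold lower in HFD+C2, and no HFD+C2 value reached the lowest HFD+C1 value. Each of these 4 comparisons gave a 2-sided exact permutation p of 0.1, the smallest that 3 against 3 allows (0.267 after Benjamini-Hochberg over 16 tests of 4 ratios). Without HFD+C2 replicate 2, the log2 difference of C2 from HFD was -0.999 in place of -1.69, and that from C1 was -0.20 in place of -0.89.

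Reads of Cyp7b1 for each read of Cyp7a1 overlapped between all groups. They numbered 6.68, 7.04 and 10.8 in NCD and 8.67, 31.9 and 11.1 in HFD, 1.82-fold higher (log2 difference 0.86, and 0.30 without HFD replicate 2). HFD+C1 livers read 5.40, 13.0 and 4.41, and HFD+C2 livers 13.3, 2.98 and 9.26. The exact permutation p was 0.2 for the diet and 0.3, 0.5 and 0.9 for C1, C2 and their difference. The ratio of exporter to uptake carrier, Abcb11 to Slc10a1, was 4.58, 2.84 and 2.10 in NCD and 1.34, 1.21 and 1.67 in HFD, without overlap (exact permutation p 0.1), and NCD replicate 1 gave the highest value. It was 1.24 to 1.45 in HFD+C1 and 1.13 to 1.82 in HFD+C2.

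**Figure D4:**
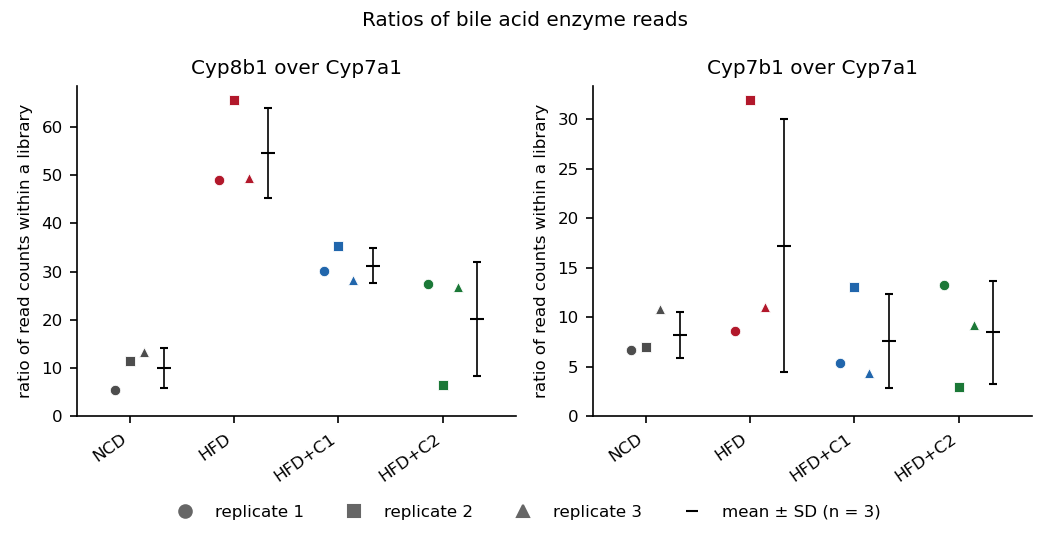
Reads of Cyp8b1 (left) and of Cyp7b1 (right) for each read of Cyp7a1 within a library (vertical axes, starting at 0) by group, with bars for the mean ± SD. The HFD livers lie at 49.0 to 65.5 on the left and the NCD livers at 5.46 to 13.3, with the compound groups below HFD; the groups overlap on the right.

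Against chow, the compound groups were compared by their ranges only. Cyp7a1, Cyp7b1, Slc27a5 and Abcb11 lay below the NCD range in all HFD+C1 and all HFD+C2 livers, the same 4 genes in both. Of all genes that averaged 10 counts or more, 26.1% lay below the NCD range in HFD+C1 and 25.7% in HFD+C2 (11.7% and 7.09% above), so 4 of 10 is not far from the background. Scaling changed the overlap for 2 genes in HFD+C2: the highest HFD+C2 library for Cyp7a1, 29.2 CPM against 32.8 CPM in the lowest NCD library, entered the NCD range after TMM scaling, and Nr1h4, which overlapped NCD by CPM, lay above it after TMM scaling (96.2 to 145 against 46.6 to 87.5 TMM-scaled CPM). For Cyp7b1 the gap was wide, with at most 137 CPM in the compound groups and at least 283 CPM in NCD. Slc10a1 lay above the NCD range in HFD+C1, at 291 to 348 CPM against 138 to 274 CPM.

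Spread between livers of one group differed by gene. The coefficient of variation of CPM was 2.72% for Slc27a5 in HFD, 1.49% for Abcb11 and 1.93% for Cyp27a1 in HFD+C1, and 59.1% for Cyp7a1 in HFD+C2. Cyp7a1 varied by 24.97% or more in every group.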

How the data were processed

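The tables deposited by the authors hold, for each of 50559 genes, raw read counts: the values are whole numbers with different totals, although the tables are called normalized. Per the submitters' processing notes, the tools were Trimmomatic 0.39, STAR 2.7 and DESeq2, with genome build mm10. The counting program and its use of strand are not given in the sources used here. Whether reads of overlapping genes on opposite strands were told apart is therefore not known. The 3 tables repeat the HFD columns with 0 differing values, and 4 rows that name no gene (27.3% to 58.1% of reads per library) were left out. Of 2220 LOC symbols, 751 were in the RefSeq GRCm38.p6 table. Library depth was 4281210 to 32124248 reads in genes, which limits precision for low genes.

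Each comparison used its own 6 libraries: edgeR 4.0.16 quasi-likelihood tests on the counts, TMM scaling, a mean of at least 10 counts, and Benjamini-Hochberg adjustment over all genes tested, called at an adjusted p under 0.05. SEs and 95% intervals came from the quasi-likelihood F statistic. The replicates are labelled biological replicates. Alternatives were other filters (no filter, a mean of at least 50 counts), DESeq2 size factors, upper quartile scaling, DESeq2 1.42.0, limma 3.58.1 (trend on log2(CPM + 1), and voom with library weights), all 12 libraries in one fit, a replicate block and each library left out. Scripts were tested on simulated data. Ratios of counts within a library were compared by exact permutation tests over 3 against 3. The text names all 10 genes, each listed pathway gene called in a comparison, the 2 of each list with the highest mean CPM, a few added regulators and clock genes, and for 4 genes those with the most similar levels. The genes and lists were chosen with earlier results of these data known. Sequences are from RefSeq, GRCm38.p6, matched by symbol.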

Additional observations from a re-analysis of the deposited data

Results flagged for a closer look

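In HFD+C2 replicate 1, 47.1% of the reads were not counted in a gene, a measure outside the gene comparisons, against 31.9% to 32.9% in the untreated HFD libraries. Mitochondrial genes took 2.95% of its gene reads, against 0.571% and 0.591% in the other HFD+C2 libraries. The changes of the 10 genes in HFD+C2 against HFD are given with and without this library.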

How the results depend on the processing

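Over all genes, the diet calls numbered 836 and went to 4493 with no filter, 524 with a mean of at least 50 counts, 2298 in DESeq2, 361 in limma with a trend, 3201 in limma voom, 2418 with all 12 libraries in one fit, 483 with a replicate block and 23 to 1838 with 1 library left out. For the 10 genes they were 3, with 5 in limma voom and 0 to 4 with 1 library left out. For the pathway lists they were 11, with 31, 25, 34 and 22 for no filter, DESeq2, voom and all 12 libraries, and 1 to 29 with 1 left out. For C1 the 7 genes called became 206 with no filter, 77 in DESeq2, 50 in voom, 0 with all 12 libraries, 36 with the replicate block and 2 to 102 with 1 left out. Of the 10 genes, C1 calls were 2 with no filter, 1 in DESeq2, 1 in voom, 1 with the block (Cyp7a1, log2 change 1.28, adjusted p 0.00254 in edgeR) and 0 to 1 with 1 left out, in place of 0. Of the lists they were 4 with no filter, 0 at 50 counts, 2 in DESeq2, 0 with all 12 libraries and 0 to 1 with 1 left out, in place of 1. For C2 the 3 genes called became 152, 35, 54 and 0 (no filter, DESeq2, voom, all 12 libraries) and 0 to 27 with 1 left out. Of the 10 genes, C2 calls were 1, 1 and 1 (no filter, DESeq2, voom) and 0 to 1 with 1 left out. Of the lists they were 5, 1 and 1, and 0 to 4. Between the compounds the 0 calls became 162 with no filter and 3 in DESeq2 (0 to 1 with 1 left out), and 4 on the lists with no filter.

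On the diet Nr0b2 (log2 change 0.00) was 0.16 with no filter, 0.0138 in limma with a trend and 0.0129 with the replicate block, and -0.14 to 0.24 with 1 library left out. Nr1h4 was -0.0037 at 50 counts, -0.0194 with upper quartile scaling and -0.14 in voom, and -0.19 to 0.25 with 1 left out. Between the compounds Baat was -0.0282 and Abcb11 -0.0342 in voom, and Slc10a1 was -0.0081 in limma with a trend and -0.0082 with the block; with 1 left out, Baat ran from -0.12 to 0.25, Abcb11 from -0.0223 to 0.0967, Slc10a1 from -0.17 to 0.16 and Cyp7a1 from -0.28 to 0.59. Against HFD, with 1 left out, Cyp7b1 (-0.14 to 0.55) and Nr0b2 (-0.10 to 0.43) changed sign for C1, and Cyp8b1 (-0.37 to 0.0194) and Slc10a1 (-0.014 to 0.32) for C2. Of the log2 ratios, with 1 left out, Cyp7b1 to Cyp7a1 ran from -0.37 to 0.71 between the compounds, Slc27a5 to Baat from -0.38 to 0.0336 for C2, and Abcb11 to Slc10a1 from -0.16 to 0.0739 for C1, -0.24 to 0.10 for C2 and -0.18 to 0.16 between them. The cause of these shifts was not tested. Samples with the same number did not deviate together (correlations of -0.224 to 0.292), so the replicate block pairs them by number alone. Cyp7a1 had 119 to 799 reads a library. The single pathway genes and 4 ratios were added after seeing the data.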

Other observations

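Genes whose levels ran most like those of 4 of the genes over the 12 libraries are given as a description (Pearson's r of log2(CPM + 1) among 10133 genes that averaged 50 counts or more). The libraries share their groups and depths, so the values also carry the differences between groups, and no test was made.

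For Cyp7a1 the closest was Asns, the asparagine synthetase gene (r = 0.933), then Sf3a3, a splicing factor gene (0.920), and Caap1 (0.899), and the most opposed was Map7d1 (-0.913). For Cyp8b1 it was Ces1g, a carboxylesterase gene (0.935), then Gm7694 (0.837) and Atg16l2 (0.836), with Gm12718 opposed (-0.845). For Cyp7b1 it was Serpine2, a protease inhibitor gene (0.984), then Selenbp2 (0.973) and Rnf2 (0.968), while Plin4, a lipid droplet coat gene, ran opposite (-0.958). For Nr0b2 it was Prox1, a transcription factor gene of hepatocytes (0.770), then Il6ra (0.738) and Zfp36l2 (0.713), with Mad2l1 opposed (-0.803). Without NCD replicate 1 and HFD+C2 replicate 1, Asns, Ces1g and Serpine2 were still the closest to their genes (r = 0.909, 0.971 and 0.984) and Prox1 ranked 2 (0.840). The others were not all still among the closest 3: Gm7694 ranked 41 and Atg16l2 26 for Cyp8b1, Il6ra 12 and Zfp36l2 21 for Nr0b2, Sf3a3 5 and Caap1 7 for Cyp7a1, and Selenbp2 3 and Rnf2 4 for Cyp7b1. Of the opposed genes, Mad2l1 ranked 10132, the last place, while Map7d1 ranked 10131, Gm12718 10130 and Plin4 10128.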
